A study of Mus musculus with 12 samples.

Results

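Inhibitory neurons of 2 kinds in the embryonic mouse forebrain were compared within the same embryos: the nuclei of Cluster 5, annotated as Migrating Int, and those of Cluster 11, annotated as Striatal Int. Membership was taken from the deposited tables, which hold a table for each embryo and cluster, so no measured value was used here to choose the nuclei. Cluster 5 held 3809 nuclei and Cluster 11 held 2209, together 6018 of the 50550 nuclei in the 25 clusters of 11 embryos. The clusters had been built from the expression of the same genes, so p-values between them describe how alike the embryos were and are not independent evidence that the clusters differ.

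All embryos were C57BL/6J at embryonic day 14, and single-nucleus RNA-seq counts were made from cortex dissected from each. Dams had received daily intraperitoneal injections of saline or of EtOH at 2.5 g/kg on 6 days, from E8 to E13. The 5 saline embryos came from dams S1 and S2 and the 6 EtOH embryos from dams E1 and E2, with S1 and E1 in batch 1 and S2 and E2 in batch 2. Littermates were treated as independent, so p-values between treatments do not carry the spread between dams. A further saline embryo was not analysed here.

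Most GABAergic neurons of the forebrain are born below the cortex, in the ganglionic eminences. Cells of the medial and caudal eminences migrate tangentially into the cortex and become interneurons, whereas the lateral eminence supplies the projection neurons of the striatum, which are also inhibitory. ErbB4, a receptor for neuregulins, is known for its part in interneuron migration, and Ebf1 is a transcription factor known from striatal projection neurons of the direct pathway.

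Each embryo gave 191 to 687 nuclei of Cluster 5 and 78 to 348 of Cluster 11. Summed counts were 975232 to 7082746 UMIs (unique molecular identifiers, each standing for one captured RNA molecule) in Cluster 5 and 740446 to 4348761 in Cluster 11, so 3 UMIs corresponded to 0.424 to 3.08 CPM (UMIs of a gene per 1e6 UMIs of the sum) in Cluster 5 and 0.690 to 4.05 CPM in Cluster 11. The saline libraries were deeper: the median nucleus of Cluster 5 held 5892 to 8558 UMIs in saline embryos and 4140 to 5959 in EtOH embryos. The saline embryo S2-4 had the lowest of the saline medians, 5892 UMIs, within the EtOH range. No nucleus was listed in both clusters of an embryo, and 7 of 6011 barcode sequences of the pair occurred in more than 1 embryo.

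The median of UMIs per nucleus was higher in Cluster 11 than in Cluster 5 in 11 of 11 embryos. The log2 ratio of median UMIs, Cluster 5 over Cluster 11, averaged -0.35 ± 0.14 (SD, n = 11; two-sided exact sign-flip permutation test, p = 0.00098, the smallest that 2048 sign patterns can give; adjusted over the 4 embryo-level tests, p = 0.0039). All gene levels below are therefore given in CPM.

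The 2 marker genes were among the genes clustered, so their levels are a description. Erbb4 was at 20490 CPM in the lowest embryo, 22344 in the median and 25749 in the highest in Cluster 5, against 258, 830 and 1232 CPM in Cluster 11. The ranges did not overlap, and the log2 fold change was 4.99 ± 0.25 (SE). Ebf1 was at 10.96, 60.0 and 153 CPM in Cluster 5 and at 9874, 12435 and 14267 CPM in Cluster 11, a log2 fold change of -7.47 ± 0.33. UMIs of the 2 genes were also set side by side in each nucleus, as counts without correction for length, which sorts nuclei and does not compare the genes. Of the 3809 nuclei of Cluster 5, 3808 held more Erbb4 than Ebf1 UMIs and 1 held more Ebf1. In Cluster 11, 2163 of 2209 nuclei (97.9%) held more Ebf1 and 46 (2.08%) more Erbb4, with 0% to 3.80% of the latter per embryo.

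Low levels of each gene in the opposite cluster were set beside Cluster 1, another of the 25 clusters. Ebf1 in Cluster 5 was at 86.3 to 153 CPM in saline and 10.96 to 60.0 in EtOH embryos, and in Cluster 1 at 53.7 to 162 and 17.4 to 62.0 CPM. The 2 clusters thus covered nearly the same range in each treatment, and the source of these UMIs was not tested. Erbb4 in Cluster 11 was at 258 to 1232 CPM in saline and 299 to 843 in EtOH embryos, against 159 to 538 and 60.1 to 169 CPM in Cluster 1.

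**Figure D1:**
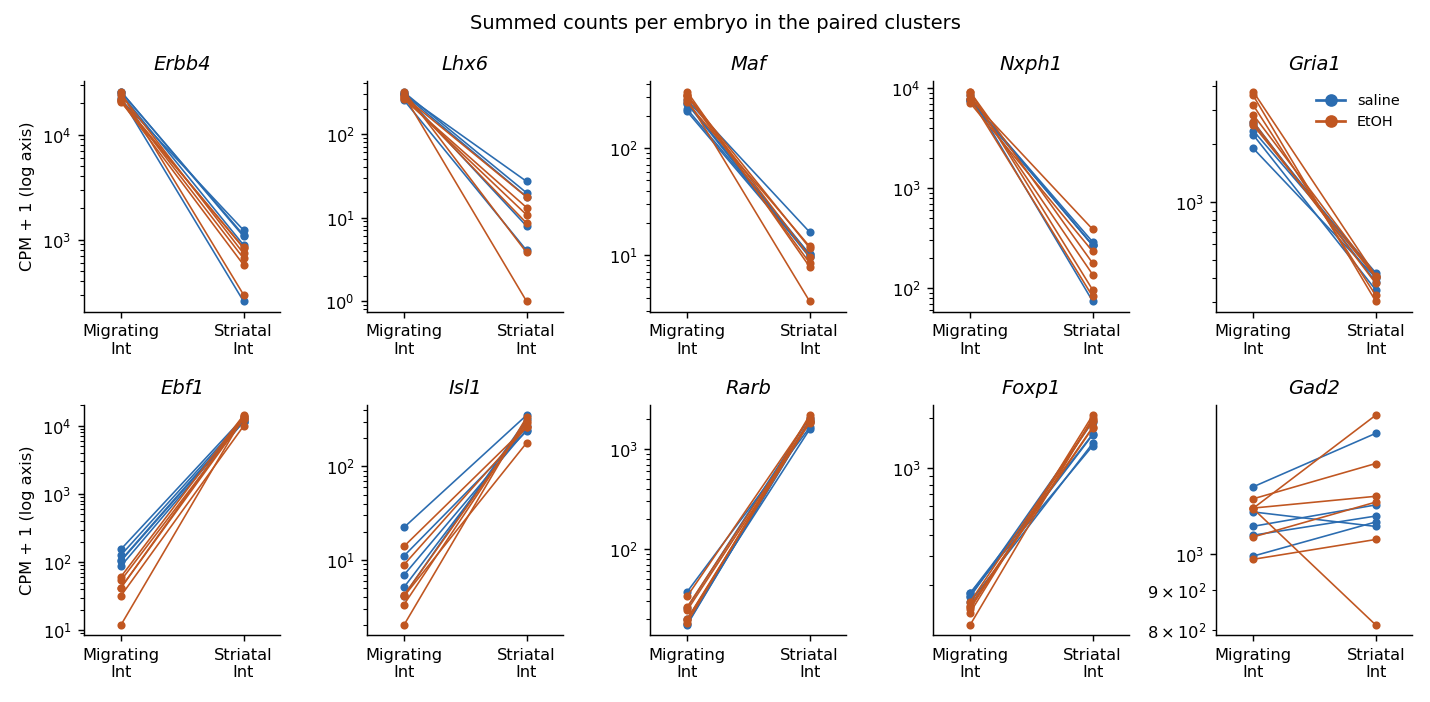
Level of 10 genes in each of 11 embryos (CPM + 1, log axis), with lines joining the Migrating Int and Striatal Int sums of the same embryo, blue for saline and orange for EtOH. The other genes change in one direction along every line; Gad2 is higher in Migrating Int in 2 of 11 embryos.

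Over all genes, 10455 passed the filter on low counts and 915 were called, with an adjusted p under 0.05 and at least a 2-fold difference (edgeR quasi-likelihood test with the embryo as a term, Benjamini-Hochberg adjustment). Of these, 351 genes (3.36% of those tested) were higher in Cluster 5 and 564 (5.39%) higher in Cluster 11. The counts over gene lists below are to be read against these shares. The median log2 fold change over all tested genes was 0.01. In 829 of the 915 called genes every embryo lay on the same side, and in 664 the 2 clusters did not overlap, against 1088 of all 10455 tested genes.

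**Figure D2:**
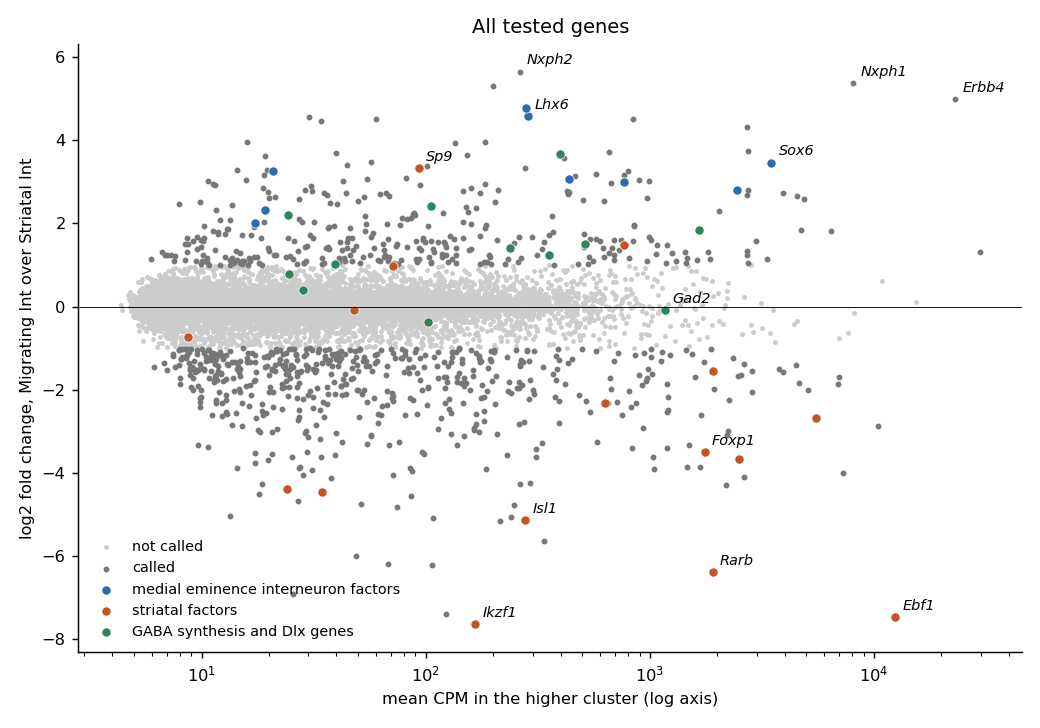
Log2 fold change of Migrating Int over Striatal Int against the mean CPM in the higher cluster (log axis) for the 10455 tested genes, with 3 gene lists in colour. The medial eminence factors all lie above 0, the striatal factors reach -7.64 with Sp9 at 3.32, and Gad2 lies at -0.09.

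Among the 10 largest differences in favour of Cluster 5, the neurexophilin genes Nxph2 and Nxph1, which encode secreted ligands of alpha-neurexins, led with log2 fold changes of 5.65 ± 0.24 and 5.36 ± 0.30 (SE). Nxph1 was at 7092, 7847 and 9224 CPM (lowest, median and highest embryo) in Cluster 5 and at 73.2, 232 and 387 CPM in Cluster 11. Dgkg, a diacylglycerol kinase, differed by 5.31 ± 0.23. The transcription factors Maf and Lhx6, both known from interneurons of the medial eminence, differed by 4.78 ± 0.10 and 4.57 ± 0.24. Lhx6 was at 251, 286 and 319 CPM in Cluster 5, whereas it ranged from 0 to 26.02 CPM in Cluster 11. The others were Erbb4, Ism1, Cntnap5c, Elfn1 and Col19a1, at 4.45 to 4.99. Over the 25 clusters, 7 of these 10 genes had their highest mean level in Cluster 5. Cntnap5c was highest in Cluster 23, Elfn1 in Cluster 15 and Col19a1 in Cluster 19.

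The 10 largest differences in favour of Cluster 11 all belonged to genes with their highest level of the 25 clusters there. Ikzf1, which encodes the zinc-finger factor Ikaros, had a log2 fold change of -7.64 ± 0.11 (SE), from 0 to 1.69 CPM in Cluster 5 and from 41.0 to 248 CPM in Cluster 11. Its level in Cluster 5 rested on 26 UMIs in all, so this SE can understate the uncertainty. Rarb, a retinoic acid receptor, was at 16.4, 18.8 and 36.2 CPM in Cluster 5 and at 1584, 1910 and 2197 CPM in Cluster 11, a log2 fold change of -6.38 ± 0.13. Its partner receptor Rxrg differed by -6.20 ± 0.21, and the mu opioid receptor gene Oprm1 by -5.63 ± 0.10. The sodium channel gene Scn10a differed by -6.91 ± 0.25 with 5 UMIs in the whole of Cluster 5 and 0 in its 6 EtOH embryos. Its fitted value ran from -6.47 to -8.37 over the alternatives. Stra6l, Trpc7 and the long noncoding RNA Gm14133 differed by -5.14 to -6.18. Gm14133 was at 0 CPM in Cluster 5 in 5 of 6 EtOH embryos, with 27 UMIs in Cluster 5 over all 11 embryos. Its fitted value ran from -5.40 to -8.82 over the alternatives, so the sizes for Scn10a and Gm14133 are uncertain. Less widely, Ikzf1 ran from -6.81 to -7.93, Rxrg from -5.80 to -7.14 and Stra6l from -5.70 to -6.83, so their SEs do not hold the whole uncertainty. Gm12158 differed by -7.40 ± 0.15, and its fitted value ran from -7.07 to -8.70 over the alternatives, so its size is uncertain too. It is annotated at chr11:44659522-44662676 on the minus strand, inside Ebf1 at chr11:44617317-45008091 on the plus strand (GRCm38), and how far reads of Ebf1 entered its counts was not tested.

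Short stretches of sequence before genes that separated the clusters are shown, because a pair of retinoic acid receptor genes stood among the largest differences and receptors of this family bind direct repeats. The windows searched held the 250 bases before the RefSeq gene start (GRCm38.p6), 5′ to 3′ on the strand of the gene. Capitals mark a match to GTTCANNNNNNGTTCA, a direct repeat with a spacer, searched on both strands. The match before Rarb spans 16 bases at chr14:16575513-16575528, ending 36 bases before the RefSeq start. GENCODE M21 annotates exons over this whole window, so the match is shown as a stretch of 30 bases.
Rarb, minus strand: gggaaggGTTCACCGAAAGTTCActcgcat
Rxrg, chr1:167598112-167598361, plus strand: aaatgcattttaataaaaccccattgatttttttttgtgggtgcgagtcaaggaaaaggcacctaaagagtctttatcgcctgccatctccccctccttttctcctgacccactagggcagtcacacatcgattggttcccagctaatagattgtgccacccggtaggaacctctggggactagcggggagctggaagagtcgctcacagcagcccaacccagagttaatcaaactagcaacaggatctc
Lhx6, chr2:36105409-36105658, minus strand: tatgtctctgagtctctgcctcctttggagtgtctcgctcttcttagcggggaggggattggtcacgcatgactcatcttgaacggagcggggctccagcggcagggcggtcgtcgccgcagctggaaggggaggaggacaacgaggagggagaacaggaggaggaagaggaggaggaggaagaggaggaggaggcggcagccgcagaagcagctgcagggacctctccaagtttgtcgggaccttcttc
Erbb4, chr1:69108060-69108309, minus strand: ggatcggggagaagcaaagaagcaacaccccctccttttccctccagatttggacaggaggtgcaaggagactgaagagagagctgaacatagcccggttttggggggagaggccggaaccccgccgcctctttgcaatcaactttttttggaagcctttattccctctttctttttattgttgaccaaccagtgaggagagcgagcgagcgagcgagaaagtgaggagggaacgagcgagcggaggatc
The repeat was not found in the windows of Rxrg, Lhx6 and Erbb4, which lie outside annotated exons. Of 27025 RefSeq promoters, 18 (0.0666%) held it, among them 3 of 7928 matched genes that were tested. It was found for 1 of 245 matched genes higher in Cluster 5 and 2 of 397 higher in Cluster 11. Rarb, which helped to prompt the search, is among the latter, so these counts are a description and no test. The homeodomain core TAATTA was in 4.90% of all promoters and in 2.35% of those of tested genes. It was in 3.27% (8 promoters) of those higher in Cluster 5 and in 4.03% (16 promoters) of those higher in Cluster 11. The palindrome TCCCNNGGGA, a form bound by Ebf proteins, was in 0.788%, 0.870%, 0.816% and 1.51%, in the same order. The last 2 shares rest on only 2 and 6 promoters. A match gives only the letters and not a bound site.

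Transcription factors of the medial ganglionic eminence were higher in Cluster 5. Of 10 listed, 9 passed the filter on low counts and were called, with a median log2 fold change of 3.07. In the fits within a cluster all 10 passed in Cluster 5 and 6 in Cluster 11, so some entered the comparison only through the cluster where they were high. Besides Maf and Lhx6 these included Sox6 (3.46 ± 0.16, SE), which acts downstream of Lhx6, and Satb1 (3.07 ± 0.08) and Cux2 (2.99 ± 0.08). The factors Nkx2-1 and Lhx8 were low, at 4.65 to 31.5 and 6.26 to 37.6 CPM in Cluster 5, and their ranges overlapped with Cluster 11. Lhx8 was nevertheless called, higher in Cluster 5 with a log2 fold change of 2.33. Of 4 tested genes of the caudal eminence list, Nr2f1, Nr2f2 and Prox1 were higher in Cluster 5, by 1.43 to 2.12, while Adarb2 was higher in Cluster 11, with a log2 fold change of -2.99 ± 0.13.

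The striatal factors took the opposite direction in 11 of 16 cases, where 16 passed the filter within Cluster 11 and 13 within Cluster 5. Beside Ebf1, Ikzf1 and Rarb, Isl1, a LIM-homeodomain factor of direct-pathway neurons, was at 177 to 352 CPM in Cluster 11 and at 1.03 to 21.3 CPM in Cluster 5 (log2 fold change -5.14 ± 0.23, SE). The forkhead genes Foxp1 and Foxp2 differed by -3.49 ± 0.11 and -3.67 ± 0.20, Meis2 by -2.69 ± 0.15 and Bcl11b, which encodes CTIP2, by -1.54 ± 0.04. Sp9, a zinc-finger factor known from indirect-pathway neurons and from migrating interneurons, was higher in Cluster 5, at 71.4 to 119 CPM against 1.33 to 14.7 CPM. Mef2c was also higher in Cluster 5, by 1.48 ± 0.11. Ikzf2 and Six3 stayed under 2-fold, and Tshz1 had an adjusted p of 0.65.

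Signalling genes of mature striatal neurons were detected unevenly. Of 20 listed genes 11 were tested, and 7 were higher in Cluster 11, among them Oprm1, Gnal, Arpp21, Cnr1, Rasgrp2 and Pde10a. Within Cluster 11, 11 passed the filter and within Cluster 5, 9, so some of both striatal lists entered only through the cluster where they were high. Pde10a, a phosphodiesterase, was at 611 to 847 CPM in Cluster 11 and at 298 to 353 CPM in Cluster 5. The dopamine receptor genes Drd1 and Drd2 were too low to be tested, at 1.22 to 9.33 and 0 to 18.7 CPM in Cluster 11. Among neuropeptides, Tac1, the substance P precursor, was higher in Cluster 11 (-3.93 ± 0.18), and Npy (3.95 ± 0.23) and Sst (2.59 ± 0.15) were higher in Cluster 5. Of this list 4 genes passed the filter between clusters, 3 within Cluster 5 and 1 within Cluster 11, so here too some passed only through the cluster where they were high.

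Nuclei were thinned to 2000 UMIs each to compare the share of nuclei with a UMI at one depth, which left out 33 of 3809 nuclei of Cluster 5 and 14 of 2209 of Cluster 11. After thinning, Isl1 was found in 40.8% ± 6.0 of Cluster 11 nuclei and in 1.23% ± 0.87 of Cluster 5 nuclei (SD, n = 11), against 78.6% and 3.72% before. Lhx6 was found in 42.8% ± 3.0 of Cluster 5 and 1.19% ± 0.81 of Cluster 11 nuclei, against 76.1% and 4.38% before. Tac1 was present in 3.97% ± 1.6 of Cluster 11 and Sst in 4.58% ± 1.8 of Cluster 5 nuclei after thinning, and in 0.257% and 0.658% of the other cluster.

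Genes of GABA synthesis and the Dlx family, which both cell types need, separated only in part. Gad2, which encodes GAD65, was at 984 to 1218 CPM in Cluster 5 and 811 to 1503 CPM in Cluster 11, with overlapping ranges and an adjusted p of 0.24. Gad1, which encodes GAD67, was at 480 to 556 and 145 to 206 CPM, a log2 fold change of 1.496 ± 0.044 (SE). In all, 8 of 12 genes were higher in Cluster 5 and 0 higher in Cluster 11. Within Cluster 5, 12 passed the filter and within Cluster 11, 11, so a gene could enter through the cluster where it was high. Dlx1as had the largest difference (3.66 ± 0.14), followed by Dlx1 (2.42 ± 0.09) and Dlx2 (2.21 ± 0.13). Dlx1 lies within Dlx1as on the opposite strand, and how far they share reads was not tested. The vesicular GABA transporter gene Slc32a1 differed by less than 2-fold.

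Retinoic acid genes were largely below the filter. Of 5 tested, 3 were higher in Cluster 11, among them Rarb and Rxrg, while Rara was higher in Cluster 5 (1.40 ± 0.12, SE) and Rxrb had an adjusted p of 0.65. Within Cluster 5, 4 passed the filter and within Cluster 11, 6, so a gene could enter through the cluster where it was high.

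**Figure D3:**
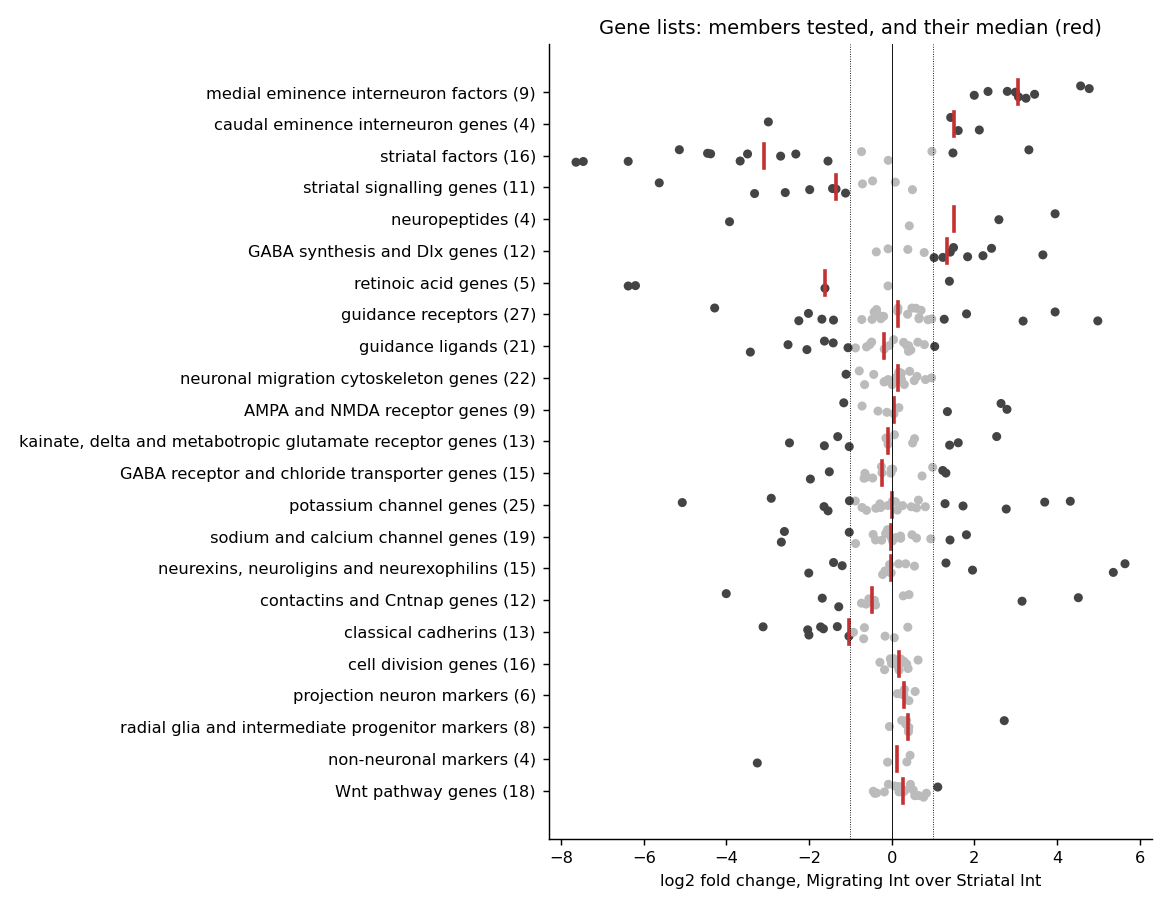
Log2 fold change of Migrating Int over Striatal Int for the tested members of each gene list (number tested in brackets), dark where called, with the list median in red and dotted lines at a 2-fold difference. Medians reach 3.07 for medial eminence factors and -3.09 for striatal factors, and lie near 0 for most receptor and channel lists, whose members spread to both sides.

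Receptors for migration and axon guidance spread in both directions. Of 27 tested, 5 were higher in Cluster 5 and 5 in Cluster 11. The filter was passed by 26 within Cluster 5 and 24 within Cluster 11, so a gene could enter through the cluster where it was high. Beside Erbb4, Cluster 5 was higher for Ackr3, a chemokine receptor for CXCL12 (146 to 261 against 4.27 to 20.1 CPM), the netrin receptor gene Unc5c (3.18 ± 0.18, SE), Epha5 (1.81 ± 0.06) and Nrp2 (1.27 ± 0.08). Cluster 11 was higher for Ephb1 (-4.29 ± 0.12), Plxnd1 (-2.25 ± 0.33), the Slit receptor genes Robo1 (-2.02 ± 0.11) and Robo2 (-1.69 ± 0.05), and Gfra1 (-1.41 ± 0.33). The other CXCL12 receptor gene, Cxcr4, was at 3.86 to 12.4 and 2.17 to 6.75 CPM and differed by less than 2-fold.

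Guidance ligands leaned to Cluster 11, where 6 of 21 tested genes were higher. Here 20 passed the filter within Cluster 5 and 21 within Cluster 11, so the same limit holds. Netrin-1 (Ntn1) had the largest difference, at 246 to 390 CPM in Cluster 11 and 14.1 to 45.2 CPM in Cluster 5. The semaphorin genes Sema3d, Sema6d, Sema3e, Sema3f and Sema3a followed, at -1.06 to -2.51. The neuregulin gene Nrg3 was the 1 ligand higher in Cluster 5 (1.04 ± 0.18, SE). Of 22 cytoskeletal genes of migration, Srgap1 alone was called (-1.10 ± 0.04), near the share over all genes, 915 of 10455. Dcx, which encodes doublecortin, was at 606 to 743 CPM in Cluster 5 and 342 to 416 CPM in Cluster 11, without overlap but under 2-fold.

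AMPA receptor subunits differed by subunit. Gria1 and Gria4 were higher in Cluster 5, with log2 fold changes of 2.79 ± 0.12 and 2.65 ± 0.08 (SE), and Gria1 was at 1894 to 3736 CPM against 303 to 426 CPM. Gria2, which limits calcium entry, was at 912 to 1170 and 975 to 1375 CPM, and Gria3 had an adjusted p of 0.11. Among NMDA receptor genes, Grin2d was higher in Cluster 5 and Grin2a in Cluster 11, and Grin2b was higher in Cluster 11 by less than 2-fold. On the AMPA and NMDA list 9 genes passed the filter within Cluster 5 and 8 within Cluster 11. A gene could thus enter through the cluster where it was high. Among kainate, delta and metabotropic receptors, 3 of 13 tested genes were higher in Cluster 5, among them Grik3 and Grik1, and 4 in Cluster 11, among them Grid1, Grm3 and Grik4.

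Channels were likewise divided. Of 25 tested potassium channel genes, 5 were higher in each cluster. Dpp10, an auxiliary subunit of Kv4 channels, differed by 4.32 ± 0.20 (SE) towards Cluster 5, whereas its relative Dpp6 differed by -1.02 ± 0.05. Kcnc2, which encodes Kv3.2, was at 403 to 791 CPM in Cluster 5 and 16.2 to 80.2 CPM in Cluster 11. Kcnd3 and Kcnd2, which encode Kv4.3 and Kv4.2, took opposite directions, at 1.73 ± 0.05 and -1.64 ± 0.06. Kcnh1 was at 201 to 294 CPM in Cluster 11 and 3.13 to 9.11 CPM in Cluster 5. Among 19 sodium and calcium channel genes, Cacna1g and Cacnb4 were higher in Cluster 5 and Scn9a, Cacna1e and Cacna1h in Cluster 11. Of 15 GABA receptor and chloride transporter genes, 2 were higher in each cluster, with Gabra3 and Gabrg1 in Cluster 5 and Gabra5 among those in Cluster 11. On this last list 15 passed the filter within Cluster 5 and 14 within Cluster 11, so the same limit holds.

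Of 15 neurexin, neuroligin and neurexophilin genes, 4 were higher in Cluster 5 and 3 in Cluster 11, and of 12 contactin and Cntnap genes 2 and 3. On the first list 15 passed the filter within Cluster 5 and 14 within Cluster 11, so the same limit holds. Nrxn3 was at 27078 to 33116 CPM in Cluster 5 and 9024 to 15068 CPM in Cluster 11. Cntn5 was at 6111 to 8381 CPM in Cluster 11 and 364 to 570 CPM in Cluster 5. Of 13 classical cadherins, 7 were higher in Cluster 11 and 0 in Cluster 5, with a median of -1.03. Cdh9 had the largest difference among them (-3.11 ± 0.14, SE), followed by Cdh18, Cdh12, Cdh8, Cdh20, Cdh10 and Cdh6.

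Markers of other cells were compared in the same way. None of 16 tested cell division genes and none of 6 projection neuron markers was called between the clusters, although 3 genes of each list had an adjusted p under 0.05 below 2-fold. Over all genes 915 of 10455 were called, so few or no calls in lists of this size lie near that share. Summed cell division genes were at 207 to 595 CPM in Cluster 5 and 261 to 458 CPM in Cluster 11. Summed projection neuron markers were at 143 to 338 CPM in Cluster 5 and 128 to 294 CPM in Cluster 11. Of 8 tested progenitor markers, Sox2 alone was higher in Cluster 5 (2.72 ± 0.11, SE). Summed progenitor markers were at 161 to 270 and 103 to 199.8 CPM (lowest and highest embryo). The non-neuronal markers summed to 23.4 to 96.1 and 49.6 to 167 CPM. Of the 4 tested, P2ry12, a microglial gene, was higher in Cluster 11 (-3.25 ± 0.12), at 32.4 to 115 CPM. P2ry12 lies within Med12l on the opposite strand, and Med12l, which was chosen after its values were seen, had a log2 fold change of -3.63 ± 0.09. The microglial gene Cx3cr1 was at 5.33 to 17.4 and 5.63 to 27.98 CPM, with an adjusted p of 0.61. By treatment, P2ry12 was at 3.17 to 6.96 CPM in saline and 8.04 to 12.3 CPM in EtOH embryos in Cluster 5, without overlap, at 32.4 to 84.1 and 74.6 to 115 CPM in Cluster 11, and at 0.747 to 6.68 and 1.45 to 6.28 CPM in Cluster 1. Cx3cr1 was at 5.33 to 16.3 and 11.1 to 17.4 CPM in Cluster 5, at 5.63 to 13.3 and 9.12 to 27.98 CPM in Cluster 11, and at 4.34 to 15.9 and 10.2 to 19.002 CPM in Cluster 1. None of the 4 tested non-neuronal markers was called after EtOH in either cluster. Of 18 tested Wnt pathway genes, Wnt7a was the 1 called gene, higher in Cluster 5 by 1.11 ± 0.08. The 1 tested Cajal-Retzius marker, Reln, was at 215 to 409 and 319.8 to 558 CPM and stayed under 2-fold (-0.48 ± 0.12), and the 1 tested cholinergic marker was Lhx8, described above.

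The proportions of the 2 clusters did not differ detectably with treatment. The authors had removed a saline sample because its nuclei were spread over the clusters unlike those of the other samples. The saline group was thus selected in part on cell proportions, and the tests below carry that limit. The share of nuclei in Cluster 5 was 7.25% ± 1.7 for saline and 7.69% ± 1.0 for EtOH (SD, n = 5 and 6; two-sided exact permutation test, p = 0.64), and Cluster 11 made up 4.26% ± 0.45 and 4.42% ± 1.0 (exact permutation p = 0.76). Nuclei of Cluster 5 outnumbered those of Cluster 11 by a log2 ratio of 0.74 ± 0.24 (saline) and 0.82 ± 0.30 (EtOH) (exact permutation p = 0.64, and 0.64 with permutation within batches). In batch 1 the mean log2 ratios were 0.90 (saline) and 0.89 (EtOH), and in batch 2 they were 0.63 and 0.78. Adjusted over the 4 embryo-level tests, these 3 p-values were each 0.76.

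**Figure D4:**
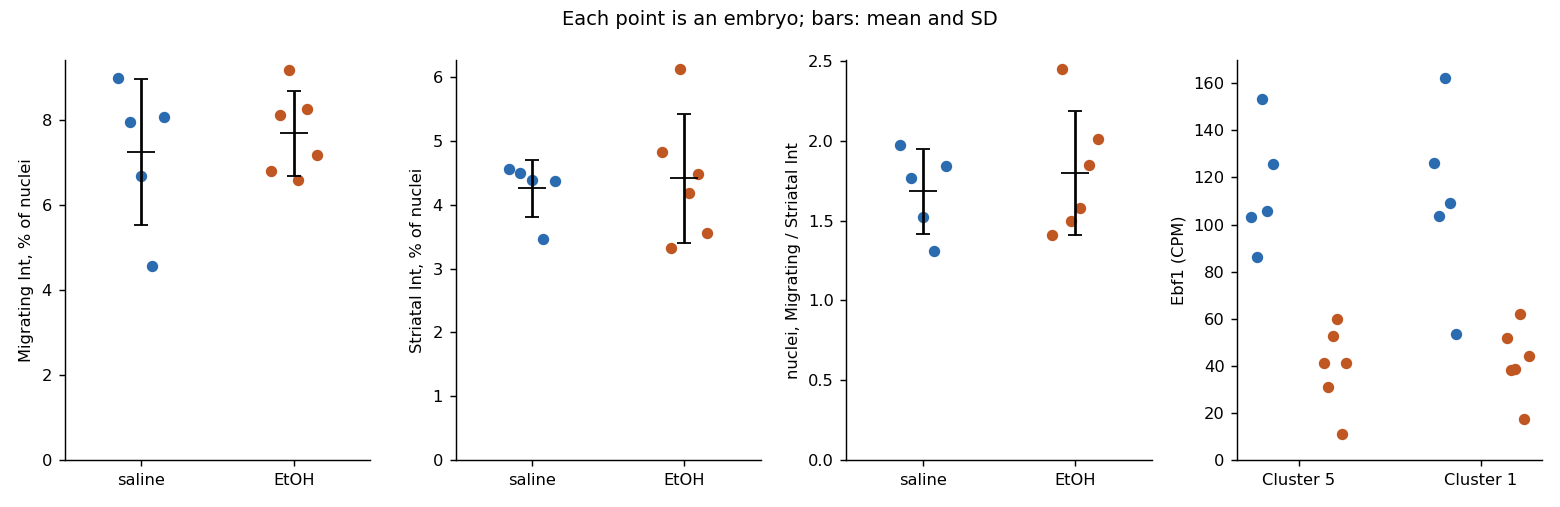
Percent of nuclei in Migrating Int and Striatal Int, the ratio of their nuclei, and Ebf1 (CPM) in Clusters 5 and 1, one point per embryo, blue for saline and orange for EtOH, with mean and SD in the first 3 panels. Treatments overlap in proportions and ratio, and Ebf1 is lower in EtOH embryos in Cluster 5 (10.96 to 60.0 against 86.3 to 153 CPM) and largely so in Cluster 1.

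The difference between the clusters was also fitted in saline and in EtOH embryos apart, with clusters that had been built on both together. Called genes numbered 1049 of 11573 tested in saline and 848 of 9377 tested in EtOH embryos. Of these 707 were shared, 67.4% of the first and 83.4% of the second, and 9362 genes were tested in both, so some saline calls had no test in EtOH embryos. Erbb4 had a log2 fold change of 4.82 in saline and 5.11 in EtOH embryos, and Ebf1 of -6.76 and -8.34. In the test of the difference itself, 0 of 11402 genes (0%) passed an adjusted p of 0.05 in edgeR, 654 had an unadjusted p under 0.05, and DESeq2 called 8. The term for Ebf1 was -1.57 ± 0.28 (SE; edgeR adjusted p = 0.28). Foxp1, chosen after its values were seen, had a term of -0.56 ± 0.11 (edgeR adjusted p = 0.13).

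**Figure D5:**
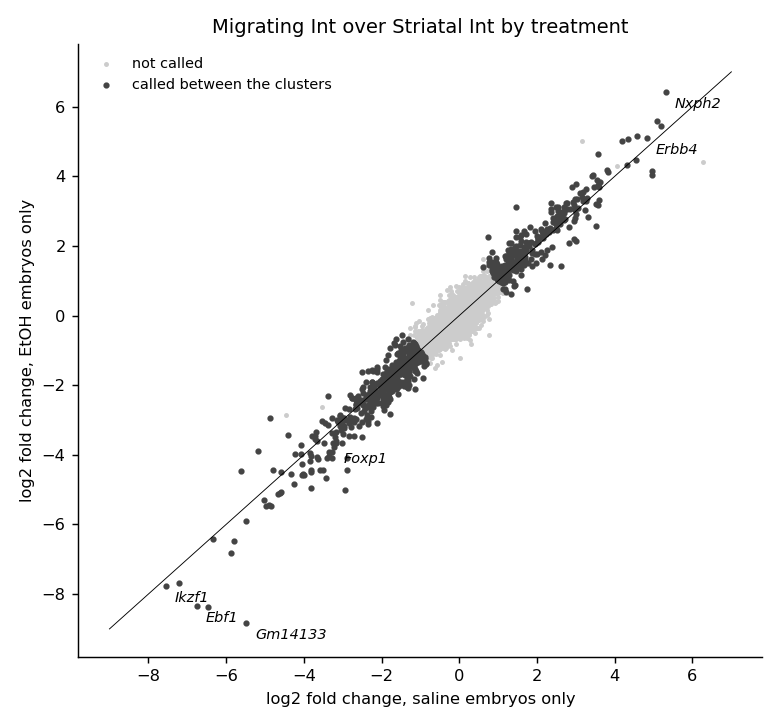
Log2 fold change of Migrating Int over Striatal Int in EtOH embryos against that in saline embryos, one point per gene, dark for genes called with all embryos, with the line of equality. Because the dark genes were chosen on both treatments together, their shared sign is no test, and Ebf1 (-6.76 and -8.34) and Gm14133 lie below the line.

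Within Cluster 5, 128 genes (1.2% of 10705 tested) were higher and 87 (0.813%) lower after EtOH, where calls needed a level at least 25% higher or 20% lower besides edgeR significance (adjusted p threshold 0.05). Grin1, the obligatory NMDA receptor subunit, was at 30.0 to 39.3 CPM in saline and 52.0 to 65.9 CPM in EtOH embryos, a log2 fold change of 0.74 ± 0.10 (SE, adjusted p = 0.0078). C2cd2, Gm26909, Smarcd3, a chromatin remodelling subunit, and Immp1l were also higher, by 0.57 to 1.52. With each embryo left out in turn, Grin1 and Slc17a6 kept their calls in 11 of 11 fits, C2cd2 in 10, Smarcd3 and Dlg1 in 9, Gm26909 and Eda in 8, Gm2164 in 7, and Immp1l and Nlgn1 in 6. Leaving out embryos does not test the spread between dams. With counts summed per dam, 7 of these genes kept their call and 3 lost it, and with thinned nuclei 8 kept it and 2 lost it. Slc17a6, which encodes the glutamate transporter VGLUT2, was lower, at 42.3 to 53.3 CPM in saline and 17.998 to 33.9 CPM in EtOH embryos. In Cluster 1 it was at 96.7 to 113 and 78.2 to 100.1 CPM. Dlg1, Eda, Gm2164 and the neuroligin gene Nlgn1 were lower, with log2 fold changes of -0.38 to -0.99. Over the gene lists, 3 of 297 tested genes rose and 9 fell. The 3 were Grin1, Slc32a1 and Gabbr2, and the 9 included the striatal factors Ebf1, Foxp1 and Sp9. Ebf1 fell by 1.53 ± 0.28 on the log2 scale (edgeR adjusted p = 0.036), with its range in Cluster 1 given above. Without S1-2 the 2 calls left in Cluster 5 were Grin1 and Slc17a6, so those of Ebf1 and of the other listed genes were lost.

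Within Cluster 11, 46 genes (0.452% of 10185 tested) were higher and 39 (0.383%) lower after EtOH (edgeR). Epha3, an ephrin receptor gene, was lower, at 843 to 1001 CPM in saline and 578 to 773 CPM in EtOH embryos (log2 fold change -0.54 ± 0.08, SE, adjusted p = 0.012), and it was lower in Cluster 5 as well (-0.34 ± 0.08, adjusted p = 0.045, a call lost without S1-2). Npas3, a neuronal transcription factor gene, was lower in Cluster 11, with -0.57 ± 0.09 (adjusted p = 0.016) and had a value of 0.05 ± 0.10 in Cluster 5, and the test of the difference had an edgeR adjusted p of 0.61. Rapgef2 and Ccdc50 were lower, with log2 fold changes of -0.43 and -0.44. Pnpla1, Gm11437, Fbxl12os, C2cd2 and BC046251 were higher, by 0.92 to 1.97. The largest value was that of BC046251, at 0.655 to 4.08 CPM in saline and 3.31 to 13.3 CPM in EtOH embryos. It lay near the floors of 3 UMIs, which were 0.690 to 1.83 and 1.27 to 4.05 CPM. Of the genes named here as higher, Fbxl12os alone had treatment ranges that did not overlap. With each embryo left out in turn, Epha3 kept its call in 11 of 11 fits, Npas3 and Rapgef2 in 9, BC046251 in 4 and the others named here in 8. Of the EtOH genes selected for Cluster 11, counts summed per dam kept the call of 4 and lost that of 6. With thinned nuclei 4 kept their call and 4 lost it. Gm11437 lies within Acaca, and Gm26909 within Polb, on the opposite strand, and Fbxl12os and Gm2164 are annotated as antisense to 1 and 2 genes in the files. Over the lists 0 of 287 tested genes rose and 3 fell: Epha3, Ephb2 and Scn1a. The genes called in both clusters numbered 26, which was 12.1% of the calls in Cluster 5 and 30.6% of those in Cluster 11.

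Single embryos moved these EtOH counts strongly. In Cluster 5 the 215 calls became 1426 without S2-4, and 114 without E1-1, 76 without E2-4, 75 without S2-2, 17 without E2-1 or S1-1, 11 without S2-1, 7 without E2-3, 6 without E1-2, 4 without E2-2 and 2 without S1-2. In Cluster 11 the 85 calls became 1006 without S2-4, 63 without E1-2, 56 without E1-1, 37 without S2-1, 33 without E2-2, 31 without S2-2, 27 without E2-3, 24 without E2-4, 9 without E2-1 and 1 without S1-1 or S1-2. S2-4 had median UMIs per nucleus within the EtOH range, while its 4172093 UMIs summed over Cluster 5 lay above those of the EtOH embryos. The part of the microglial genes given above in these counts was not tested. The part of depth in these counts was not tested beyond thinning. Thinned nuclei gave 109 calls of 7161 tested genes in Cluster 5 and 48 of 5833 in Cluster 11. Of these calls, 49 and 15 were also made without thinning, where 10705 and 10185 genes were tested.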

How the data were processed

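The authors isolated nuclei from single cortices, made 10x 3′ libraries, aligned reads with Cell Ranger to mm10, and filtered, integrated (SCTransform, Harmony on batch and dam) and clustered nuclei in Seurat. They deposited raw UMI counts per gene and nucleus, one table per embryo and cluster, with 23513 genes. Cell Ranger was run with default parameters, and no strand setting is spelled out in the sources used here.

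Counts were summed per embryo and cluster (22 sums) and tested with edgeR 4.0.16 in R 4.3.3 (TMM, filterByExpr, robust quasi-likelihood fit, Benjamini-Hochberg adjustment), and with DESeq2 1.42.0 as an alternative. The models held embryo and cluster between clusters, treatment within a cluster, and a cluster by treatment term. The scripts were tested on simulated data. Levels are CPM without length correction, so they are compared between samples and not between genes. Exact permutation tests went through every allowed assignment of embryos or signs, with NumPy 2.4.6. No doublet caller was run on the deposited nuclei. Levels over the 25 clusters used embryos with at least 10 nuclei. The floors of 3 UMIs cover counting error only, while SDs hold the spread between embryos. SEs of log2 fold changes were derived from the quasi-likelihood F statistic. Each is the absolute log2 fold change divided by the square root of F, and it can understate the uncertainty where UMIs are few.

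The named genes were Erbb4 and Ebf1, the 10 largest differences per direction (called, same sign in every embryo, at least 20 CPM), members of 25 gene lists, and up to 5 EtOH genes per direction with the smallest adjusted p. Members and lists were chosen with earlier results of these data known. Positions are from GENCODE M21, to which 98.3% of the gene symbols matched. Some genes that these rules select are not reported here.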

Additional observations from a re-analysis of the deposited data

Results flagged for a closer look

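A group of embryos was examined for a single value far from the others (Dixon's test on the gap over the range) in 48 groups, of which 5 stood out, and chance gives about 1 in 20. The saline embryo S2-2 had the lowest percent of nuclei in Cluster 11, 3.47%, with the next at 4.38%. It also had the highest difference between the clusters for Erbb4, 6.43 on the log2(CPM + 1) scale with the next at 4.78, and for Nxph1, 6.86 with the next at 4.87. The EtOH embryo E2-3 had the highest difference for Erbb4 among EtOH embryos, 6.39 with the next at 5.17, and the lowest for Ebf1, -10.2 with the next at -8.37.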

How the results depend on the processing

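All 437 values of the 20 named genes between clusters under the alternatives kept their direction and call. These genes were picked from the same data for large differences of the same sign in every embryo, so this is no test. Counts higher in Cluster 5 and Cluster 11 were 351 and 564. They were 616 and 975 with no filter on low counts and 1458 and 1655 where a level 25% higher sufficed, and thinning gave 353 for Cluster 11. After EtOH, Cluster 5 (215) gave 639 with no filter, 509 with DESeq2, 109 thinned and 81 per dam, and 2 to 1426 without single embryos. Cluster 11 (85) gave 683, 240, 48 and 41, with 50 with batch as a term and 1 to 1006 without single embryos. With the replicate block by sample number there were 24 and 38 calls, but same-numbered embryos did not deviate together (r -0.0863 to 0.0535), so the numbers pair no samples. Named EtOH genes lost their call in 33 of 180 alternative values in Cluster 5 and 37 of 173 in Cluster 11, and none reversed. The 0 calls of the difference between treatments became 1 with DESeq2 size factors, 57 with no filter, 8 with DESeq2, 9 thinned, 4 with a cluster by batch term, 7 per dam and 0 to 4 without single embryos. EtOH minus saline, the log2 nuclei ratio (0.084) was -0.049 with medians and -0.011 to 0.149 without single embryos. The percent in Cluster 5 (0.437) was -0.307 and -0.238 to 0.872, and that in Cluster 11 (0.156) was -0.058 and -0.186 to 0.375. The UMI ratio in saline embryos was -0.29, where the smallest possible p is 0.0625. The causes were not tested.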
